A study of Mus musculus with 48 samples.

Results

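Hip1r, Hip1, Tnfsf9 and Itprip are 4 of the 20171 genes counted in a Tnrc6a RNA immunoprecipitation experiment in mouse embryonic stem cells. They were chosen by measured values, because their RNAs stood higher in the Tnrc6a immunoprecipitate, relative to the lysate it came from, in cells without Ago2 than in cells with it. Hip1r, Tnfsf9 and Hip1 led the ranking of that contrast over both experiments among genes with an average of at least 3 on the log2 CPM scale, and Itprip was noted for its value in Ago2 knockout against labelled Upf1 knockout cells. The ranking also kept only genes called higher on average with the same sign in both experiments. Each of the 4 is a single row of the count table and passed the filter on low counts. The contrast that chose them is given here as a description without a test.

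By the growth protocol given for every sample, all cells were mES cells of the 129S6/SvEvTac strain that carried the GFP_5xT71BS reporter (yGlob [GFP_5xT71BS] in the label) and a stable transfection of FLAG-Cas9::T2A::Blasticidin. The label of the untagged control cells names nothing else. HA-Tnrc6a cells also carried HA-AVI-Tnrc6a, in which the Tnrc6a protein bears an HA tag. Ago2 knockout cells were HA-AVI-Tnrc6a, Ago2-/-, and the cells labelled Upf1 knockout were HA-AVI-Tnrc6a, Upf1-/-. How many clones stand behind each genotype is not given in the sources used here. Lysates of triplicate dishes, matched for protein, were put on HA magnetic beads, and RNA was sequenced from the lysate (input) and from the beads (IP). With 4 genotypes, 2 fractions and 2 experiments, numbered 3 and 4, there were 16 groups of 3 libraries.

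Tnrc6a is a mouse GW182 protein. In microRNA silencing, an Argonaute protein such as Ago2 holds the microRNA and pairs with a target mRNA, and GW182 binds the Argonaute and brings in the enzymes that shorten the poly(A) tail. An RNA recovered with Tnrc6a may be in or near such a complex, but recovery alone does not show that. The untagged cells show what the beads hold without a tag. Hip1r and Hip1 are a related pair of endocytic adaptor proteins that link clathrin coats and membrane lipids to actin. Tnfsf9 is a ligand of the tumour necrosis factor superfamily, best known for stimulating T cells through its receptor Tnfrsf9. Itprip binds the inositol trisphosphate receptor, the calcium release channel of the endoplasmic reticulum.

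Library totals were 15383953 to 19595405 counts for inputs and 11471544 to 18344233 for IPs in experiment 3, and 26458831 to 37179105 and 25724085 to 73845953 in experiment 4. Levels are given as CPM, counts per 1e6 counts of the library after TMM scaling. Tnrc6a mRNA, itself recovered on the beads, stood at 8841 to 34244 CPM in HA-Tnrc6a IPs and at 56.6 to 105 CPM in untagged IPs. Ago2 mRNA was at 92.8 to 136 CPM in the Ago2 knockout inputs and at 161 to 470 CPM in all other inputs. Upf1 mRNA was not lower in the inputs labelled Upf1 knockout, at 122 to 142 CPM against 74.4 to 110 CPM elsewhere, so mRNA level gave no check of that label. All 12 embryonic stem cell markers were present and summed to 7346 to 9042 CPM in the inputs. Which table columns belong to experiment 3 and which to experiment 4 was inferred from the numbers in the column names, so the experiment names used here rest on that reading.

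The start regions of Hip1r and Hip1 are shown because both RNAs stood highest in the Ago2 knockout IPs of experiment 3. Without those libraries their levels correlated at a Pearson r of only 0.159, against 0.790 with them. Hip1r (ENSMUSG00000000915) lies at chr5:123973602-124003215 and Hip1 (ENSMUSG00000039959) at chr5:135406496-135545323. Each sequence is the 250 bases before an annotated start, read on the gene's strand from RefSeq, build GRCm38.p6. Capitals mark the GC box, searched as GGGCGG and as its reverse complement CCGCCC, with overlapping matches allowed. RefSeq gives Hip1 a pair of starts, one well inside the gene and one near its far end, labelled below as at the far end. The outer Hip1 window and the Hip1r window overlap the gene spans given above, so those starts also lie within the spans. Gene-level counts do not show which one these cells used.

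Hip1r, chr5:123973378-123973627, plus strand: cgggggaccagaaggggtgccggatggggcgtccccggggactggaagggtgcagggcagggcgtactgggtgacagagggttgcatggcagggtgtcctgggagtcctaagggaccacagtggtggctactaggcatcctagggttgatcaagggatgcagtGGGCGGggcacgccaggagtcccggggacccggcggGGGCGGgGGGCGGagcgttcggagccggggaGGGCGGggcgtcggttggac
Hip1, start inside the gene, chr5:135489230-135489479, minus strand: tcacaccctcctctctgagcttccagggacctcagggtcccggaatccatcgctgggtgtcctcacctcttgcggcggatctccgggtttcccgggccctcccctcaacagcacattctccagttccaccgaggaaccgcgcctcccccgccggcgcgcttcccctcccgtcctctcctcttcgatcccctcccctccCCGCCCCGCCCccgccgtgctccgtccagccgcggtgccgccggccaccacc
Hip1, start at the gene's far end, chr5:135545123-135545372, minus strand: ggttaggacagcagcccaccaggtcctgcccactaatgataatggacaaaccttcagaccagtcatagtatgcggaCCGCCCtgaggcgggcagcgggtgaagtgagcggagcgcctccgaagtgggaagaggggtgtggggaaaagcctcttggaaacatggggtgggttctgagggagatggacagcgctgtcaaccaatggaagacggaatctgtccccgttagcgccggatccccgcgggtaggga

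The Hip1r window held 4 GC boxes, a number reached by 4.09% of the 32817 mouse start windows of this length. The inner Hip1 window held 2, as did 16.7% of windows or more, and the outer one held 1. GC boxes are common, since 32.7% of all windows hold at least 1. G and C made up 71.2% of both the Hip1r window and the inner Hip1 window, against a median of 52.4%. Read on the strands shown, the longest run of bases shared by these 2 windows was 9. Runs shared between opposite strands were not counted. Itprip also had 1 GC box in its window.

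In experiment 3, the mean CPM of Hip1r and Hip1 in Ago2 knockout IPs was 16.2-fold and 15.4-fold that of the inputs. In experiment 4 the ratios were 1.76 and 2.15. For Tnfsf9 the ratios were 24.2 and 23.6 in experiments 3 and 4, and for Itprip 7.41 and 5.52. The high recovery of both endocytic adaptors without Ago2 was thus seen in 1 of the 2 experiments, and that of the other 2 RNAs in both.

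Hip1r RNA stood at 532, 430.0 and 622 CPM in the 3 Ago2 knockout IPs of experiment 3. The HA-Tnrc6a IPs of that experiment held 57.8, 48.7 and 45.2 CPM, the untagged IPs 35.4, 29.3 and 33.3 CPM, and the IPs labelled Upf1 knockout 40.9, 49.9 and 52.0 CPM. The Ago2 knockout libraries lay far above the others and did not overlap them. Ago2 knockout and HA-Tnrc6a libraries entered the choice of Hip1r and Hip1, so their separation here and below is a description. In experiment 4 the Ago2 knockout IPs held 32.6, 33.3 and 37.8 CPM and the HA-Tnrc6a IPs 24.2, 26.3 and 27.4 CPM. These groups again did not overlap, but the gap was small, and untagged IPs, at 27.3, 26.8 and 29.4 CPM, were no lower than HA-Tnrc6a IPs. The lysates showed no such rise. Hip1r was at 34.4, 29.4 and 33.7 CPM in the Ago2 knockout inputs of experiment 3 and at 32.5, 32.9 and 30.8 CPM in the HA-Tnrc6a inputs. In experiment 4 it was at 20.4, 17.9 and 20.5 CPM without Ago2 and at 23.8, 22.9 and 23.3 CPM with it.

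Hip1 followed the same course. The Ago2 knockout IPs of experiment 3 held 386, 345 and 496 CPM and the HA-Tnrc6a IPs 56.0, 52.6 and 47.2 CPM, with no overlap. In experiment 4 the Ago2 knockout IPs held 65.6, 61.6 and 72.9 CPM and the HA-Tnrc6a IPs 69.5, 65.1 and 59.0 CPM, and here the groups overlapped. Untagged IPs were at 23.5, 23.5 and 22.7 CPM in experiment 3 and at 39.7, 42.5 and 39.9 CPM in experiment 4, under every tagged IP of the same experiment. Its inputs held 26.8, 26.4 and 26.5 CPM without Ago2 and 26.6, 22.0 and 25.7 CPM with it in experiment 3. In experiment 4 they held 31.3, 31.0 and 30.7 CPM without Ago2, all under the 34.2, 33.5 and 34.6 CPM with it. Hip1 thus stood out from untagged cells in every tagged genotype, whereas Hip1r did so by a wide margin in 1 group of libraries.

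**Figure D1:**
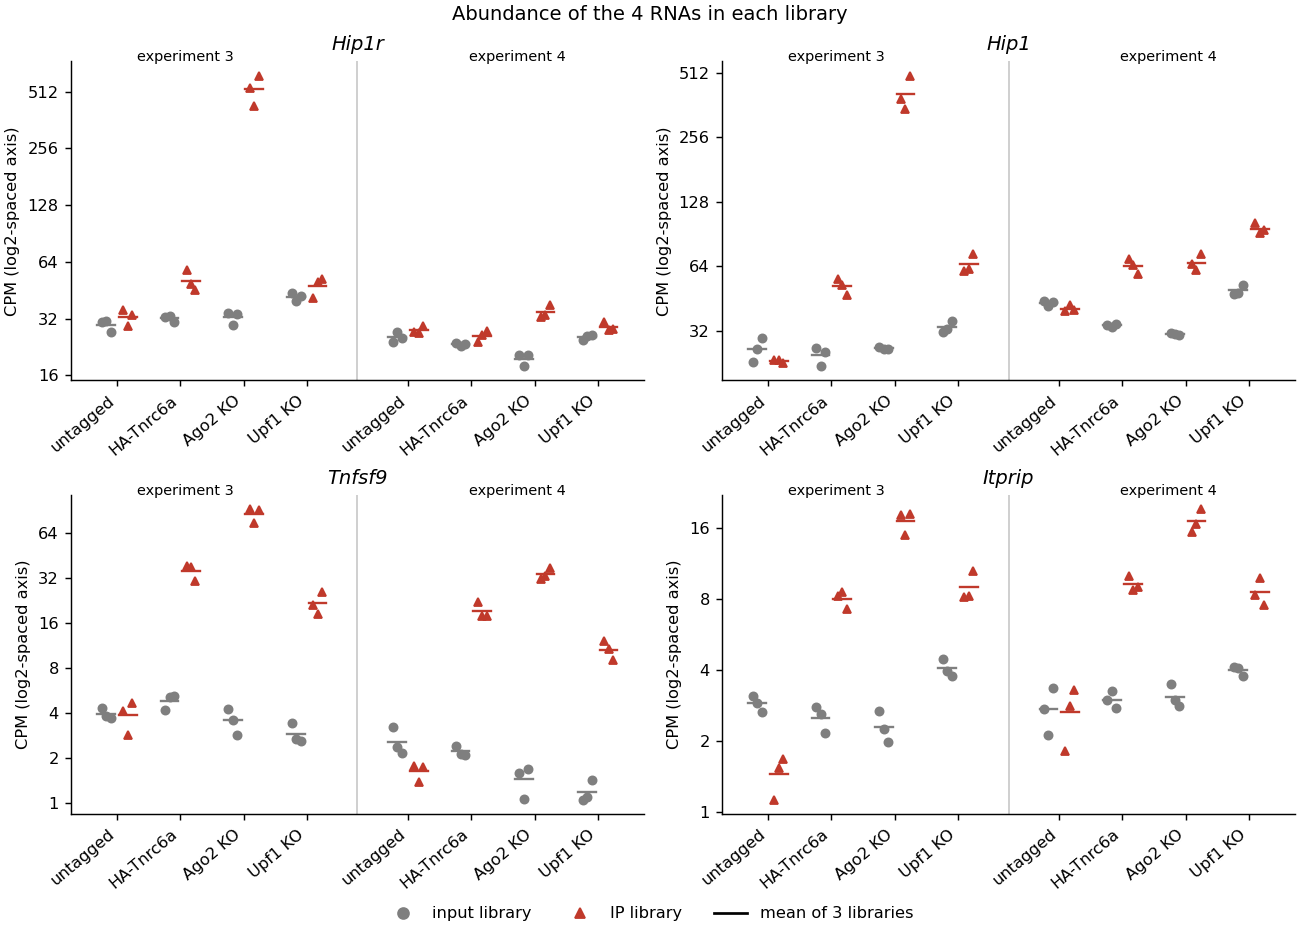
Abundance of the 4 RNAs in each of the 48 libraries, in CPM on a log2-spaced axis, by genotype and experiment; grey circles are inputs, red triangles are IPs and bars are means of 3 libraries. The Ago2 knockout IPs of experiment 3 lie between 430.0 and 622 CPM for Hip1r and between 345 and 496 CPM for Hip1, above every other library.

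How far these 3 libraries stood apart can be stated for each gene as the lowest of the 3 over the highest of the other 45. That ratio was 7.44 for Hip1r and 3.38 for Hip1, the 2 highest values of the 20171 genes. Bcl11a, Spic and Marchf9 came next at 2.26, 2.24 and 2.11, and Tnfsf9 was sixth at 1.94. The libraries set apart here were part of the contrast that chose the members, so the ranks are a description and no independent evidence. In all, 439 genes were higher in these 3 libraries than in every other, 5 of them by over 2-fold. Itprip, at 0.78, was not among them, because its highest library was an Ago2 knockout IP of experiment 4. Between the Ago2 knockout IPs of the experiments, Hip1r differed by 15.3-fold and Hip1 by 6.14-fold in mean CPM, Tnfsf9 by 2.54-fold and Itprip by 1.00-fold.

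The change in recovery, defined as the log2 IP-over-input ratio in Ago2 knockout less that in HA-Tnrc6a cells, was 3.36 ± 0.14 (SE, n = 3 per group) for Hip1r in experiment 3 and 0.66 ± 0.14 in experiment 4. For Hip1 it was 2.88 ± 0.14 and 0.18 ± 0.13. The difference between experiments was 2.70 ± 0.20 for Hip1r and 2.70 ± 0.19 for Hip1, with adjusted p = 7.03e-11 and 1.78e-11 by edgeR's quasi-likelihood test with Benjamini-Hochberg adjustment over 19995 genes. The choice of members used the average of both experiments, which is a separate contrast from their difference, but it comes from the same libraries and was already known when they were chosen, so these p values are no independent evidence. Over all genes, 0.08% (16) had a difference called positive and 0.115% (23) one called negative, and nothing is read from the 2 of 4 members among them. Among 10990 genes with an average of at least 3 on the log2 CPM scale, Hip1r and Hip1 ranked first and second. Akap9, a scaffold protein of the centrosome and Golgi, came next at 2.23 ± 0.65 and did not pass the test (adjusted p = 0.31 by edgeR).

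**Figure D2:**
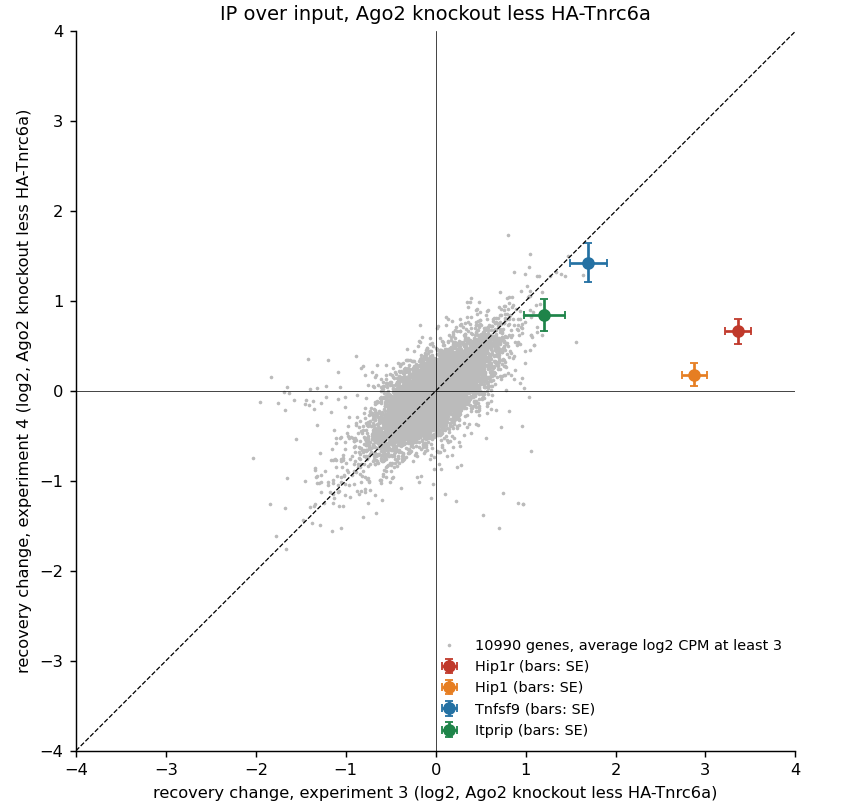
Change in recovery, log2 IP over input in Ago2 knockout less that in HA-Tnrc6a cells, in experiment 3 (horizontal) and experiment 4 (vertical) for 10990 genes; coloured points are the 4 RNAs with SE bars and the dashed line marks equal values. Hip1r and Hip1 lie far to the right of the line, at 3.36 and 2.88 in experiment 3, while Tnfsf9 and Itprip lie near it.

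Other quantities differed between the same genotypes. Tnrc6a mRNA on the beads was at 58807, 41114 and 51684 CPM in the Ago2 knockout IPs of experiment 3, above the 34244, 26128 and 19271 CPM of the HA-Tnrc6a IPs. In experiment 4 it was at 12689, 11211 and 15861 CPM against 12657, 8841 and 10555 CPM, with overlap. Tnrc6a mRNA was also higher in Ago2 knockout inputs of both experiments, at 97.3 to 130 CPM against 66.6 to 91.5 CPM in HA-Tnrc6a inputs. Its change in recovery differed between experiments by 0.60 ± 0.33, which did not pass the test (adjusted p = 0.70 by edgeR's quasi-likelihood test). Endoderm markers, 5 of 6 in the table with Afp missing, summed to 5.18 to 6.34 CPM in Ago2 knockout inputs and to 8.53 to 48.6 CPM in the other inputs. In such bulk lysates, fewer cells of a type and less RNA per cell cannot be told apart. The part of these differences in the Hip1r and Hip1 values was not tested.

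Tnfsf9 (ENSMUSG00000035678, chr17:57105287-57107758) had the clearest enrichment in every tagged genotype. In experiment 3 its RNA stood at 93.0, 75.1 and 91.7 CPM in Ago2 knockout IPs, at 38.8, 38.2 and 30.7 CPM in HA-Tnrc6a IPs and at 4.15, 2.84 and 4.67 CPM in untagged IPs. In experiment 4 the values were 31.9, 33.0 and 37.3 CPM, 22.1, 17.8 and 17.9 CPM, and 1.76, 1.38 and 1.73 CPM. The 3 groups kept this order in both experiments with no overlap. Ago2 knockout and HA-Tnrc6a libraries entered the choice of Tnfsf9, so their order is a description. The share of all genes with such an order is not given here. Inputs held little Tnfsf9, at 4.26, 3.60 and 2.87 CPM without Ago2 and 4.20, 5.08 and 5.18 CPM with it in experiment 3. The IP-over-input ratio of mean CPM was 24.2 and 23.6 in Ago2 knockout cells in experiments 3 and 4, against 7.45 and 8.71 in HA-Tnrc6a cells. The level on the beads was lower in experiment 4, and so was that in the lysate.

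The change in recovery of Tnfsf9 was 1.70 ± 0.21 (SE, n = 3 per group) in experiment 3 and 1.43 ± 0.21 in experiment 4. The difference, 0.27 ± 0.30 with a 95% interval of -0.32 to 0.86, did not pass edgeR's quasi-likelihood test (adjusted p = 0.89). The lysate made up part of the change. Inputs of Ago2 knockout cells held less Tnfsf9, by -0.42 in experiment 3 and -0.61 in experiment 4 on the log2 scale, while IPs alone held more, by 1.31 and 0.85. Gm11110, a long noncoding RNA that overlaps Tnfsf9, had an average change of 0.83 (adjusted p = 0.0061 by edgeR's quasi-likelihood test). The kit was stranded, but whether reads were counted by strand is not given in the sources used here, so counts of these overlapping genes are uncertain.

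Itprip (ENSMUSG00000117975, chr19:47894590-47919323) was the least abundant of the 4, with 15 to 1264 raw counts per library. In experiment 3 it stood at 18.0, 14.9 and 18.3 CPM in Ago2 knockout IPs, at 8.24, 8.55 and 7.22 CPM in HA-Tnrc6a IPs and at 1.13, 1.53 and 1.67 CPM in untagged IPs. In experiment 4 it stood at 15.3, 16.5 and 19.1 CPM, 9.96, 8.68 and 8.93 CPM, and 1.82, 2.83 and 3.29 CPM. The order was the same in both experiments and the groups did not overlap. Ago2 knockout libraries entered the choice of Itprip, so this order is a description. The share of all genes with such an order is not given here. Inputs were alike, at 2.67, 2.25 and 1.98 CPM without Ago2 and 2.78, 2.60 and 2.16 CPM with it in experiment 3, and 3.47, 2.97 and 2.80 CPM and 2.97, 3.25 and 2.75 CPM in experiment 4. The change in recovery was 1.21 ± 0.23 (SE, n = 3 per group) and 0.85 ± 0.18. Their difference, 0.36 ± 0.29 with a 95% interval of -0.21 to 0.93, did not pass edgeR's quasi-likelihood test (adjusted p = 0.83).

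Averaged over the experiments, the changes that chose the members were 2.01 ± 0.10 (SE) for Hip1r, 1.56 ± 0.15 for Tnfsf9, 1.53 ± 0.09 for Hip1 and 1.03 ± 0.15 for Itprip. Over all 19995 genes tested these were ranks 16, 46, 48 and 243. Next in the ranking limited to an average log2 CPM of at least 3 were St3gal4, a sialyltransferase, at 1.48 ± 0.10, Marchf9, a membrane-bound ubiquitin ligase, at 1.47 ± 0.10, and Herpud1, a factor of endoplasmic reticulum protein degradation, at 1.36 ± 0.09. These 3 had similar values in both experiments, such as 1.47 and 1.50 for St3gal4 in experiments 3 and 4. The ranking kept only genes called higher with the same sign in both experiments, so shared direction was required beforehand. With 9.09% of the 19995 genes called higher and 12.3% lower in this contrast and a median of -0.04, the members come from the upper end of a broad distribution.

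Per kilobase of transcript, which allows levels of different genes to be compared, Hip1r and Tnfsf9 were the most abundant of the 4 in the Ago2 knockout IPs of experiment 3. They stood at 71.7 ± 13.0 and 67.1 ± 7.71 CPM per kb (SD, n = 3), and their libraries lie within that spread of each other. Hip1 followed at 31.6 ± 6.03 and Itprip at 4.32 ± 0.466 CPM per kb. In the HA-Tnrc6a IPs of that experiment the order was another, with Tnfsf9 at 27.8 ± 3.48, Hip1r at 6.86 ± 0.882, Hip1 at 4.01 ± 0.343 and Itprip at 2.03 ± 0.175 CPM per kb.

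Against untagged cells, the members differed in how strongly they were held by tagged Tnrc6a when Ago2 was present. The enrichment, the log2 IP-over-input ratio of HA-Tnrc6a less that of untagged cells, was 2.91 and 3.80 for Tnfsf9, 2.66 and 1.71 for Itprip, 1.23 and 1.04 for Hip1, and 0.51 and 0.06 for Hip1r in experiments 3 and 4. In Ago2 knockout cells it was 4.62 and 5.22 for Tnfsf9, 3.89 and 2.56 for Itprip, 4.12 and 1.22 for Hip1, and 3.88 and 0.72 for Hip1r. The comparisons share the untagged libraries, and those with Ago2 knockout or HA-Tnrc6a cells share libraries with the choice of members, so they are values without a test. Without Ago2, the 4 RNAs thus lay between 3.88 and 4.62 in experiment 3, and were spread from 0.72 to 5.22 in experiment 4.

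The cells labelled Upf1 knockout, which still have Ago2, give a view of this enrichment in libraries outside the contrast that chose Hip1r, Hip1 and Tnfsf9. By edgeR's quasi-likelihood test, Tnfsf9 was enriched over untagged cells by 3.43 ± 0.19 (SE, adjusted p = 1.24e-17) and Hip1 by 1.17 ± 0.08 (adjusted p = 9.12e-15), averaged over the experiments. Hip1r, at 0.13 ± 0.09 with a 95% interval of -0.05 to 0.30, did not pass (edgeR adjusted p = 0.22). The enrichment of Itprip was 1.72 ± 0.20, given without a test because these cells entered the comparison in which it was noted. With 31.8% of 19910 genes called higher, a call here is common. None of these enrichments of Hip1r, Hip1 or Tnfsf9 was called different between experiments by the same test (adjusted p = 0.94, 0.75 and 0.36). The Hip1r interval for that difference, -0.29 to 0.41, lies below the same difference for Ago2 knockout over untagged cells, 3.16 ± 0.20 (SE). The latter value is given without a test and shares the untagged libraries.

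**Figure D3:**
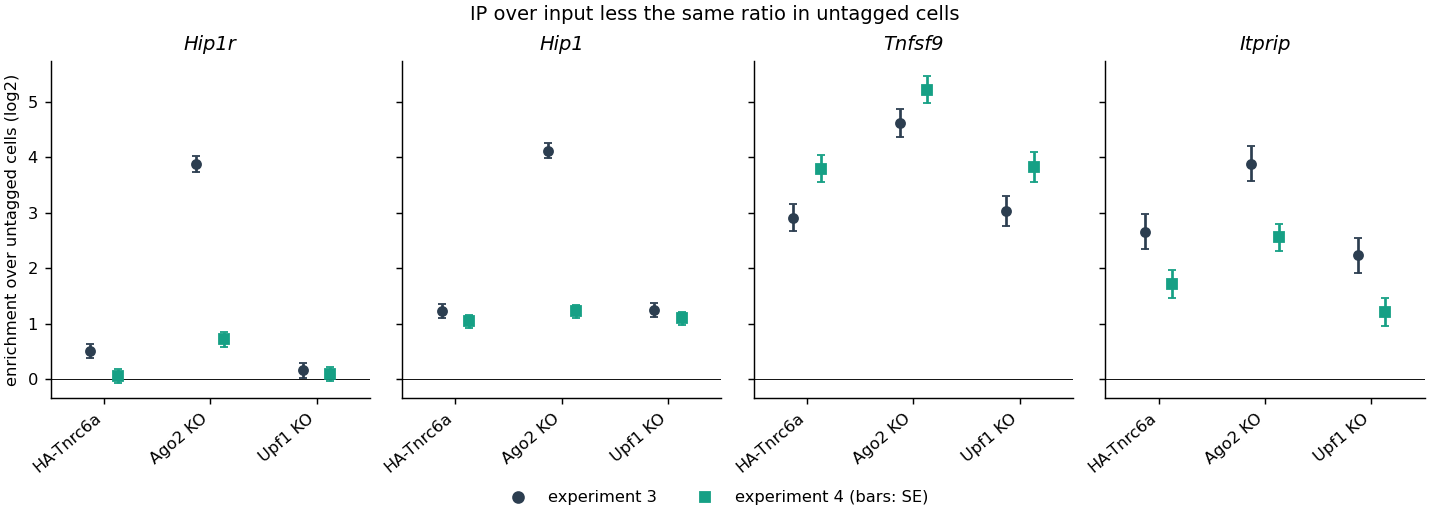
Enrichment of each RNA over untagged cells (log2 IP over input less the same ratio in untagged cells) by tagged genotype; circles are experiment 3, squares experiment 4 and bars SE. Hip1r and Hip1 reach 3.88 and 4.12 in Ago2 knockout cells of experiment 3 and 1.25 or less in all 5 other settings, while Tnfsf9 is at 2.91 or above throughout.

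In cells without a tag, averaged over the experiments, IP and input of 3 of the 4 RNAs did not differ past the threshold. The averaged log2 IP-over-input ratio was 0.13 ± 0.07 for Hip1r, -0.14 ± 0.06 for Hip1 and -0.35 ± 0.16 for Tnfsf9, none past edgeR's quasi-likelihood test (0.14, 0.099 and 0.091 as adjusted p). Itprip was lower on the beads, at -0.53 ± 0.18 (edgeR adjusted p = 0.029), as were 17.8% of 19299 genes. That call was lost in 5 of 12 fits with 1 library left out, where the ratio was -0.53 to -0.42. Taken singly, Itprip was at -1.0 in experiment 3 and at -0.07 in experiment 4 (edgeR adjusted p = 0.020 and 0.86), and Tnfsf9 at -0.03 and -0.66 (edgeR adjusted p = 0.95 and 0.028). In these experiments 7.41% and 14.5% of genes were called lower. Neither difference between experiments passed the test (edgeR adjusted p = 0.20 for Itprip and 0.34 for Tnfsf9).

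The lysates of untagged cells and of cells labelled Upf1 knockout show how the RNA levels themselves varied. In edgeR's quasi-likelihood test, Hip1r and Hip1 were higher in the labelled Upf1 knockout inputs, by 0.24 ± 0.05 (SE, adjusted p = 0.00015) and 0.27 ± 0.05 (adjusted p = 8.9e-05), and Tnfsf9 fell by 0.76 on the log2 scale (SE 0.14, adjusted p = 4.66e-05). Itprip was at 0.52 ± 0.12, given without a test. Of 19298 genes, 26.8% were called higher and 26.1% lower. The Hip1r value was 0.47 in experiment 3 and 0.02 in experiment 4, a difference of 0.45 ± 0.10 (edgeR quasi-likelihood adjusted p = 0.0062). In that direction 2.96% of genes were called. Between experiments, inputs of these genotypes held less Hip1r in experiment 4 than in experiment 3, by -0.46 ± 0.05, more Hip1, by 0.65 ± 0.05, and less Tnfsf9, by -0.94 ± 0.14 (edgeR adjusted p = 6.74e-09, 1.24e-11 and 1.79e-06). With 60.5% of genes called in either direction, such shifts were common. The Hip1r and Hip1 lysate levels thus moved in opposite directions between experiments, whereas their Ago2 knockout IP levels were both higher in experiment 3.

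Other genes of clathrin-mediated endocytosis were not higher as a group. Of 43 tested from a list of 45, 1 was called higher and 5 lower in averaged recovery without Ago2, and the median was -0.04, equal to that of all genes. Over all genes, 9.09% were called higher and 12.3% lower, so the share called lower on this list was near the background. The 5 lower ones were the membrane-bending adaptors Epn1 (-0.67 ± 0.08) and Epn2 (-0.47 ± 0.07), the endophilins Sh3gl2 (-0.58 ± 0.07) and Sh3gl1 (-0.43 ± 0.08), and the adaptor kinase Aak1 (-0.47 ± 0.09), with SE after each value. The clathrin heavy chain Cltc was at 0.24 ± 0.10 and the assembly protein Picalm at 0.05 ± 0.06, neither past edgeR's test.

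In the difference between experiments, 0.08% of all 19995 genes were called positive and 0.115% negative. Of these 43 endocytosis genes, 2 were called positive and 0 negative, with a median of -0.0021 against 0.0078 for all genes. They are named because they passed, after their values were seen. Itsn2, an endocytic scaffold, differed by 1.14 ± 0.15 (SE) and passed edgeR's test at an adjusted p of 2.05e-05. It was at 0.73 in experiment 3 and -0.41 in experiment 4. Its IP level without Ago2 was 420 ± 43.5 CPM in experiment 3 (SD, n = 3) against 207 ± 19.2 CPM in HA-Tnrc6a cells, and 282 ± 1.70 against 289 ± 29.9 CPM in experiment 4. Ston2, a stonin adaptor, differed by 0.72 ± 0.12 (edgeR adjusted p = 0.0019), with 0.59 and -0.13. Its IP level without Ago2 was 80.0 ± 5.90 CPM against 46.0 ± 1.64 in experiment 3, and 58.8 ± 1.83 against 54.6 ± 1.46 CPM in experiment 4. Both differences were smaller than those of Hip1r and Hip1.

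**Figure D4:**
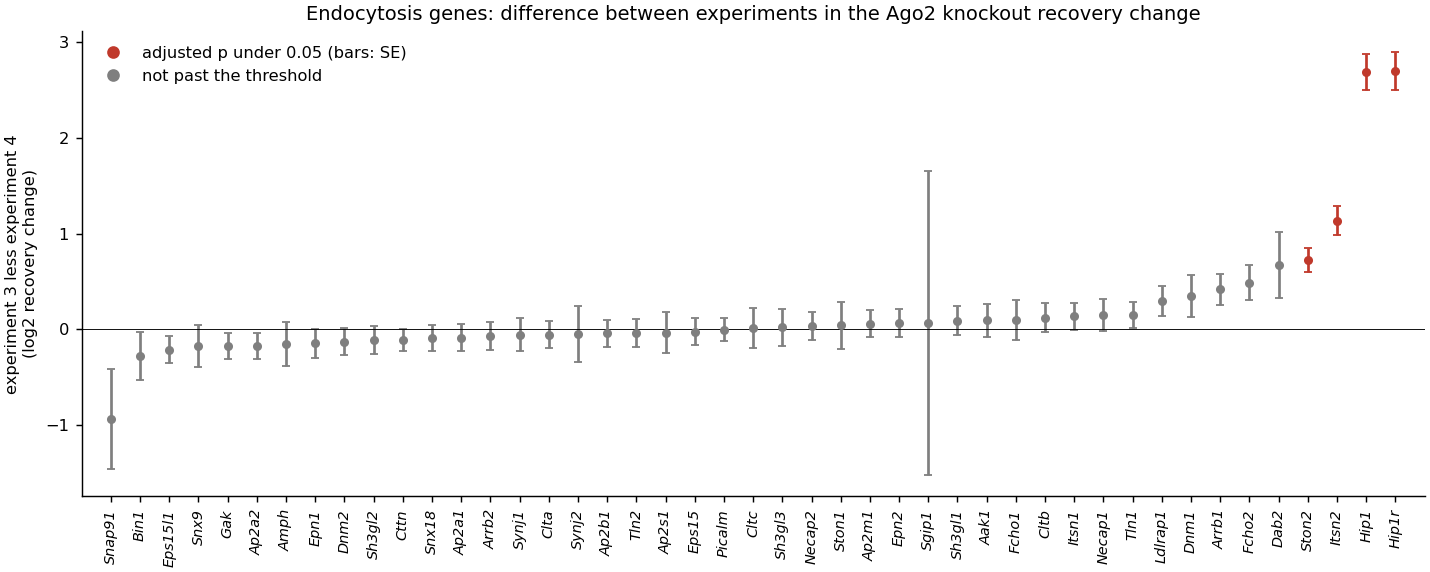
Difference between experiments 3 and 4 in the change of recovery without Ago2 (log2) for Hip1r, Hip1 and 43 other endocytosis genes, in rising order; bars are SE and red points had an edgeR adjusted p under 0.05. Hip1r and Hip1 stand at 2.70, followed by Itsn2 at 1.14 and Ston2 at 0.72, while most others lie near 0.

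Among tumour necrosis factor ligands and receptors, 27 of 44 were tested, and 5 were called higher and 2 lower without Ago2, with a median of 0.04, where 9.09% and 12.3% of all genes were called higher and lower. The receptor Tnfrsf12a had the lowest adjusted p, at 1.09 ± 0.15 (SE, adjusted p = 1.85e-06 by edgeR), and was at 1.01 in experiment 3 and 1.16 in experiment 4. Tnfrsf22 was at 0.35 ± 0.08, Tnfrsf13b at 0.90 ± 0.27 and Tnfrsf1b, a receptor for the founding ligand, at -0.40 ± 0.10. The Tnfrsf12a call held in all 9 other settings, those of Tnfrsf22 and Tnfrsf1b in 8 and that of Tnfrsf13b in 6. The Tnfsf9 receptor, Tnfrsf9, was at -0.64 ± 0.39 and did not pass. Of the inositol trisphosphate genes, 9 of 10 were tested, 2 were called higher and 1 lower, with a median of -0.0029, against the same shares of all genes. The kinase Itpkc was at 0.45 ± 0.11, the kinase Itpkb at -0.44 ± 0.15 and the receptor Itpr1 at 0.22 ± 0.08. The calls of Itpkb and Itpr1 were each lost in fits with 1 library left out. No gene of either list was called in the difference between experiments, where 0.08% of all genes were called positive and 0.115% negative.

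Of the measured genes next to Hip1r and Hip1 on the chromosome, none had a change near theirs in experiment 3. Vps37b, 1426 bases from Hip1r, was at 0.48 and 0.18 in experiments 3 and 4 and was called higher on average, at 0.33 (adjusted p = 0.026 by edgeR). That call was lost in 5 of 24 fits with 1 library left out and held in 6 of 9 other settings. Ccdc62, on the other side of Hip1r, was at -1.0 and -0.40. Pom121, 1655 bases from Hip1, was at -0.22 and -0.35. Gsto2, next to Itprip, was at 0.80 ± 0.85 and -0.37 ± 0.63 (SE), too imprecise to set against Itprip. The genes on either side of Tnfsf9 were not analysed here. RefSeq also places the noncoding Gm46922 and Mir7032 over Hip1r and Gm52790 over Hip1, and these were not analysed here.

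Across the 48 libraries, the genes whose log2 CPM followed each member most closely differed among the 4. For Hip1r they were Marchf9, Mitd1 and Rab3a, with Pearson r of 0.879, 0.834 and 0.829. Leaving out the 3 Ago2 knockout IPs of experiment 3 took these to 0.790, 0.544 and 0.786. For Hip1 they were Tacc2, Tgif2-ps2 and Rab23 at 0.874, 0.873 and 0.872. Tnfsf9 was followed by Socs1, Btbd2 and Junb at 0.972, 0.972 and 0.969, and Itprip by D5Ertd579e, Slc29a2 and Zfp157 at 0.955, 0.954 and 0.954. Hip1r and Hip1 correlated with each other at 0.790 over 48 libraries and at 0.159 over the 45 without those 3. Hip1 and Itprip were at 0.813 and 0.840 in the same sets. Libraries of a group are replicates and all IPs share the bead step, so these values describe the libraries and carry no test.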

How the data were processed

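RNA was sequenced in inputs and HA-bead IPs of 4 genotypes in 2 experiments, 48 libraries made with a stranded total RNA kit. Per the submitters' processing notes, bcl2fastq 2.20, STAR 2.7.3a and GRCm38 were used. The counter, its strand setting and the annotation are not given in the sources used here. The authors deposited raw counts per gene and library, with no normalization, and a gene length column in bases. A further 48 per-library columns were not used. Each of the 20171 genes reached at least 11 counts in some library. Columns numbered 1 to 3 were taken as experiment 3 and 4 to 6 as experiment 4, an inferred mapping. Symbols missing from the table came from the reference tables.

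Counts were fitted with edgeR 4.0.16 (limma 3.58.1, R 4.3.3): TMM scaling, filterByExpr with a minimum count of 10, robust quasi-likelihood fit, 1 coefficient per group and only the groups compared. Tests were two-sided F-tests with Benjamini-Hochberg adjustment over all genes tested, called under 0.05. The SE is the log2 fold change over the square root of F, and 95% intervals are normal. CPM values were scaled by TMM over all 48 libraries, and log2 CPM used a prior count of 2. Scripts were tested on simulated data.

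The members and gene lists were chosen with earlier results of these data known. Named genes were the members, Tnrc6a, Ago2 and Upf1, the next 3 by averaged recovery, the 3 largest differences between experiments, the 3 closest by correlation, neighbours, and up to 4 per list by adjusted p. Cltc, Picalm, Tnfrsf9, Aak1, Itsn2, Ston2, Bcl11a and Spic were added after their values were seen. Same-numbered libraries did not deviate together (mean r 0.011 over 168 pairs, -0.049 to 0.193), so numbers were not used as pairs. Dishes are the replicates, and p-values measure the spread between dishes, not between clones. Alternatives were RLE scaling, library totals, no count filter, DESeq2 1.42.0, 1 fit of all 48 libraries, a replicate block, IPs without inputs, each experiment alone and each library left out.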

Additional observations from a re-analysis of the deposited data

Results flagged for a closer look

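The recovery change of Hip1r and of Hip1 without Ago2 differed between experiments by 2.70 on the log2 scale for each, with adjusted p = 7.03e-11 and 1.78e-11 by edgeR's quasi-likelihood test of the difference. The p values come from libraries used to choose the members and were known beforehand, so they are no independent evidence. Hip1r rose in the lysates labelled Upf1 knockout against untagged lysates by more in experiment 3 than in experiment 4, by 0.45 ± 0.10 (SE, edgeR adjusted p = 0.0062). Experiment and its sequencing depth changed together, and their part in these differences cannot be told apart.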

How the results depend on the processing

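Over RLE scaling, library totals, no count filter, DESeq2, 1 fit of all libraries, a replicate block and IPs without inputs, the difference between experiments in recovery without Ago2 was 2.68 to 2.99 for Hip1r and 2.67 to 2.95 for Hip1, and it passed each time. With 1 library left out it was 2.57 to 2.82 and 2.54 to 2.80. Library numbers did not pair the samples, and the replicate block gave 2.70 for Hip1r and 2.68 for Hip1 and took the genes called in this difference from 39 to 37. DESeq2 called 104 genes in this difference and IPs without inputs 624. Leaving out 1 library gave 24 to 71, with 61 without replicate 3 of the HA-Tnrc6a IPs and 71 without replicate 3 of the Ago2 knockout IPs of experiment 3, and 24 without the HA-Tnrc6a input numbered 6 of experiment 4. Itsn2 and Ston2 passed in all of these.

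Genes called in the averaged change went from 4267 to 7482 with IPs alone and to 1623 with experiment 3 alone. Tnfsf9 was at 1.08 with IPs alone. Experiment 3 alone gave 3.34 for Hip1r, 2.85 for Hip1 and 1.19 for Itprip, and experiment 4 alone gave 0.67, 0.19 and 0.86. Ston2, called higher on average, was at -0.12 in experiment 4 alone. With 1 library left out, Hip1r enrichment over untagged cells in labelled Upf1 knockout was -0.013 to 0.20, passing only without replicate 1 of those IPs in experiment 3 (edgeR adjusted p = 0.037). In untagged cells the bead ratio was -0.18 to -0.092 for Hip1, passing only without input replicate 1 of experiment 3 (edgeR adjusted p = 0.023), and -0.63 to -0.42 for Itprip. The Itprip call was lost without input replicate 1, input replicate 2 or IP replicate 1 of experiment 3, and without the IP numbered 4 or the input numbered 6 of experiment 4. Genes called in the difference between experiments of labelled Upf1 knockout inputs were 735 to 1912. Fewer samples or genes enter each such fit, and other causes were not tested. Low counts of Itprip and Tnfsf9 in inputs limit their ratios.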
